A study of Mus musculus with 8 samples.

Results

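The 10 genes described here encode the sensors, adaptor, proteases and membrane proteins of inflammasome signalling and lytic cell death: Nlrp3, Aim2, Nlrc4, Mefv, Nek7, Pycard, Casp1, Casp4, Gsdmd and Ninj1. They were chosen by symbol from a table of 55414 genes, and all 10 were present and had enough counts to be tested among 16304 genes. Their mRNA was measured by sequencing in iBMDM cells, an immortalized wild-type mouse macrophage line. Control cells received the solvent DMSO and then water, and DSF cells 5 μM disulfiram and then water. In the LPS group DMSO was followed by lipopolysaccharide at 1 μg/ml, and DSF+LPS cells received both agents, disulfiram before lipopolysaccharide. The listed times were the same in every group, 0.5 h for the pretreatment and 4 h for the step with lipopolysaccharide or water. Each group held 2 libraries, and the labels do not say whether these came from separate cultures, so a p-value reflects the spread of these libraries alone, and that spread may be technical.

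An inflammasome is a protein complex that assembles in the cytosol when a sensor meets a sign of infection or damage. NLRP3, AIM2, NLRC4 and pyrin are such sensors, ASC joins them to caspase-1, and caspase-1 matures interleukin-1β and interleukin-18 and cuts gasdermin D, whose released part forms pores in the plasma membrane. Mouse caspase-11 binds intracellular lipopolysaccharide directly and cuts gasdermin D without a canonical sensor, and NINJ1 breaks the membrane late in lytic death. Disulfiram is an aldehyde dehydrogenase inhibitor whose reported targets include the gasdermin D protein, and the study asked whether it acts on signalling by the LPS receptor. Only mRNA was measured here, so pore formation, cleavage and protein level are outside these data.

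The libraries held 17822041 to 21694922 counts. The 8 macrophage markers checked, among them Adgre1, Csf1r and Lyz2, were all detected, and their summed level was 2176 to 2224 CPM (counts per 1000000 counts of a library, after TMM scaling) in control, 1958 to 2129 with DSF, 2560 to 2700 with LPS and 2319 to 2431 with DSF+LPS. The sum covered members that moved apart. DSF alone raised 2 and lowered 4 of the 8, where 58.1% of all genes were called by the test described below. In LPS-treated cells it raised 2 and lowered 5, where 65.3% of all genes were called. Mean Csf1r went from 815 CPM in control to 461 with DSF and Fcgr1 from 43.2 to 11.3, while Cd68 went from 580.4 to 760.2 and Lyz2 from 395 to 515. Markers of other cell types summed per library to at most 0.860 CPM for neutrophils, 3.78 for dendritic cells, 2.88 for lymphocytes, 1.77 for fibroblasts and 4.44 for epithelial and endothelial cells, and S100a9, Cd3e and Cd3g had no count. The neutrophil sum was 0.0517 to 0.174 CPM in control and 0.826 to 0.860 with DSF, and the lymphocyte sum 0.174 to 0.362 and 1.36 to 2.12 CPM. Genes with a count numbered 19779 to 20324 without DSF and 23416 to 25081 with it. The part of these differences in the results below was not tested. In bulk libraries fewer cells of a type and less RNA per cell cannot be told apart.

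Levels below are CPM in libraries 1 and 2 of a group, and the words rose and fell are used where the adjusted p was under 0.05 by the quasi-likelihood test of edgeR, adjusted by Benjamini-Hochberg over all genes tested. SE is the approximate standard error of a log2 fold change. The chi-square per degree of freedom between the 2 libraries of a group, larger where they differ more, was 3.88 in control and 4.28 with LPS. It was 7.10 with DSF and 13.4 with DSF+LPS. The fit shared its estimate of spread over the 4 groups, so an SE that involves DSF+LPS may be too small. LPS alone raised 5 of the 10 genes and lowered 2, so that 7 of 10 were called, where 29.0% of all genes were called, 15.2% upward and 13.8% downward. DSF alone raised 4 and lowered 5, where 58.1% of all genes were called, 31.0% upward and 27.1% downward. In cells given LPS, prior DSF raised 3 and lowered 6, where 65.3% of all genes were called, 33.7% upward and 31.6% downward. Under DSF, LPS raised 4 and lowered 1, where 12.1% of all genes were called, 5.53% upward and 6.53% downward. With both agents against control 5 genes were higher and 5 lower, where 65.2% of all genes were called, 34.3% upward and 30.9% downward. The median log2 fold change of the 10 genes was 0.44 with LPS and -0.52 in DSF+LPS against LPS, where the medians of all genes were 0.02 and 0.04. The libraries of the 2 groups did not overlap for 9 of the 10 genes in LPS with control (65.5% of all genes), for 10 in DSF with control (80.1%), for 9 in DSF+LPS with LPS (82.2%), for 8 in DSF+LPS with DSF (51.9%) and for 10 in DSF+LPS with control (82.1%). These comparisons share groups of libraries with each other. Mefv is included in these totals, medians and non-overlap counts. It passed the filter on low counts only through DSF+LPS, where it was high, so its part in them supports nothing.

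Nlrp3, the sensor that responds to potassium loss and membrane damage, stood at 49.2 and 47.9 CPM in control and at 619.7 and 616 CPM with LPS. With DSF alone it had 80.7 and 74.6 CPM, and with DSF+LPS 209 and 271 CPM. The 4 groups did not overlap, in the order control, DSF, DSF+LPS and LPS. LPS raised Nlrp3 by 3.67 on the log2 scale (SE 0.11, adjusted p = 2.18e-12), and DSF alone raised it by 0.68 (SE 0.10, adjusted p = 5.4e-05). Given before LPS, DSF lowered it to 0.388 of the LPS level (log2 fold change -1.37, SE 0.10, adjusted p = 1.48e-08), which still left it 4.94-fold above control (adjusted p = 1.31e-10). The LPS response under DSF was 1.63 (SE 0.10), 2.05 smaller than without the drug (log2 difference -2.05, SE 0.14, adjusted p = 1.23e-07). Every one of these Nlrp3 calls was kept in all alternative settings tried.

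**Figure D1:**
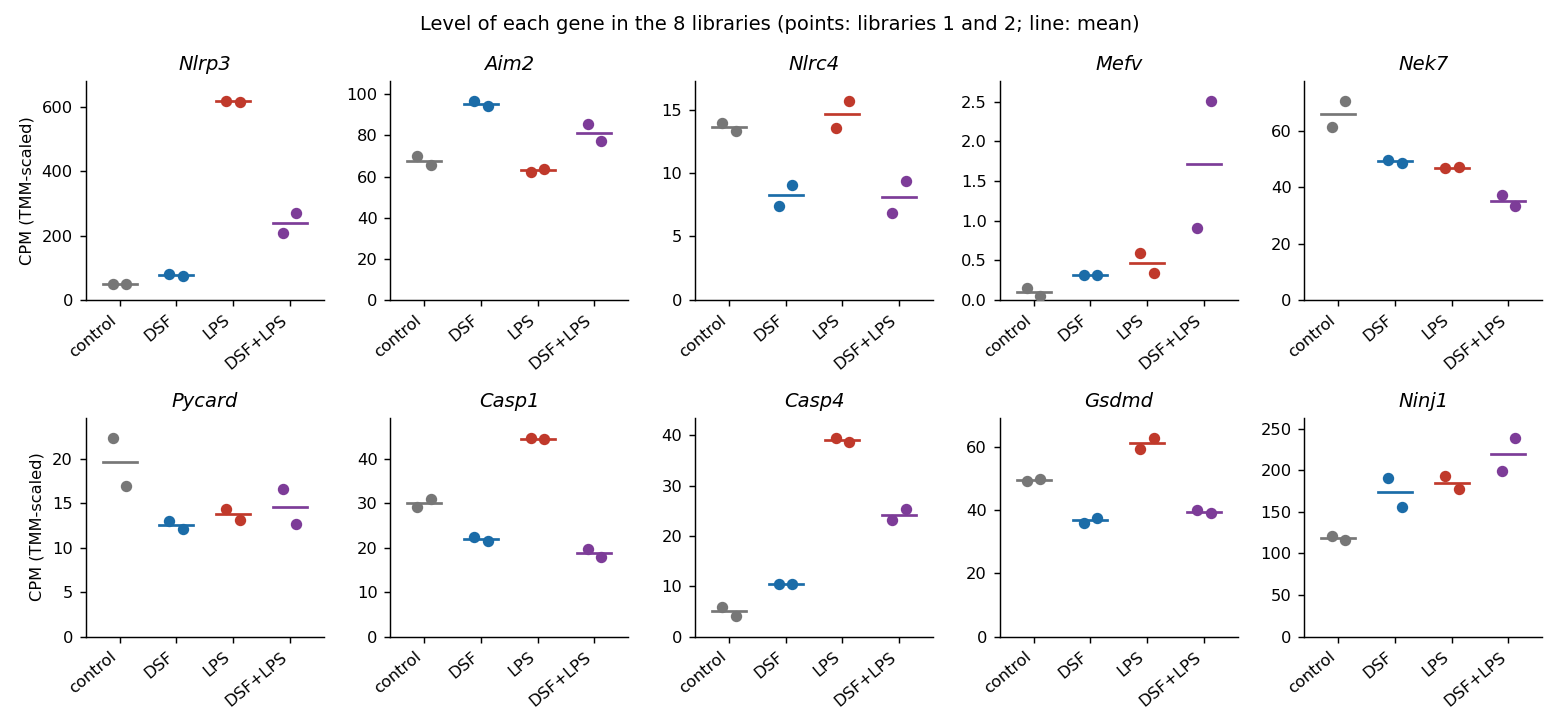
Level in CPM (linear axes from 0, a separate scale for each gene) of the 10 genes in the 8 libraries, with points for libraries and a line for the mean of each group of 2. Nlrp3 and Casp4 are highest with LPS and intermediate with DSF+LPS, whereas Casp1 and Gsdmd with DSF+LPS lie below control.

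Aim2, which encodes the sensor of cytosolic double-stranded DNA, had 69.8 and 65.5 CPM in control and 62.3 and 63.8 with LPS. It stood at 96.8 and 94.3 CPM with DSF and at 85.7 and 77.1 with both. The libraries with DSF were above all libraries without it. DSF raised Aim2 alone (log2 fold change 0.50, SE 0.08, adjusted p = 0.00010) and in LPS-treated cells (0.37, SE 0.08, adjusted p = 0.00108). LPS did not change it beyond the threshold, with values of -0.10 (SE 0.08, adjusted p = 0.402) without DSF and -0.23 (SE 0.08, adjusted p = 0.0786) with it. Both differences reached the threshold when libraries were scaled by size alone (-0.26 and -0.34, adjusted p = 0.0277 and 0.0135), and the second also without DSF+LPS replicate 1 (-0.32, adjusted p = 0.0190). With both agents Aim2 was above control (0.27, SE 0.08, adjusted p = 0.00952), a call lost with library size alone (0.060, adjusted p = 0.539), without control replicate 2 (0.21, adjusted p = 0.121) and without DSF+LPS replicate 1 (0.16, adjusted p = 0.133). Aim2 overlaps Cadm3 on the opposite strand. Whether the counting used strand is not given in the sources used here, so some reads of the 2 genes may have been misassigned.

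Nlrc4, the sensor that detects bacterial flagellin and secretion system proteins through NAIP partners, was lowered by DSF. It had 13.9 and 13.3 CPM in control and 13.6 and 15.7 with LPS, against 7.38 and 9.09 with DSF and 6.86 and 9.33 with both. The 4 libraries with DSF lay below the 4 without it. The log2 fold change with DSF was -0.73 alone (SE 0.17, adjusted p = 0.0019) and -0.86 in LPS-treated cells (SE 0.17, adjusted p = 0.000478), and with both agents against control -0.75 (SE 0.17, adjusted p = 0.00134). The LPS effect did not pass the test with or without the drug (log2 fold changes -0.02, SE 0.18, and 0.10, SE 0.16). The processed pseudogene CT033749.1 overlaps Nlrc4 on the same strand.

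Mefv, which encodes the RhoA-guarding sensor pyrin, was near the limit of detection. The control libraries had 3 and 1 raw counts, the DSF libraries 7 and 6, the LPS libraries 12 and 7, and the DSF+LPS libraries 18 and 46. The DSF+LPS libraries were above all others, at 0.908 and 2.51 CPM. Mefv passed the filter on low counts only through that group, where it was high, so its differences from the other groups are given as a description and its calls, counted among the rises above, support nothing. The ratio of DSF+LPS to LPS was 3.65 (95% exact binomial interval for counting error 2.16 to 6.44), and that of DSF+LPS to control 17.7 (6.60 to 67.1). The fitted log2 fold changes of DSF+LPS were 1.87 against LPS (SE 0.61, adjusted p = 0.0142), 2.42 against DSF (SE 0.64, adjusted p = 0.0261) and 4.07 against control (SE 0.78, adjusted p = 0.000329). Without DSF+LPS replicate 2 the first value was 0.99 (adjusted p = 0.287) and the second 1.54 (adjusted p = 0.238), and the first was 1.51 (adjusted p = 0.117) without LPS replicate 2 and 1.90 with DESeq2 (adjusted p = 0.0646). The second also lost its call without either DSF library and in a fit of only the 2 groups (adjusted p = 0.0660 to 0.189). The value against control was 3.17 without DSF+LPS replicate 2, 3.39 without control replicate 2 and 5.09 without control replicate 1, and was called in each. LPS alone and DSF alone did not pass the test, with 2.20 and 1.66 (adjusted p = 0.0824 and 0.151), and LPS alone passed it with no filter on low counts (2.18, adjusted p = 0.0406).

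Nek7, a mitotic kinase whose protein binds NLRP3 and is needed for its assembly, fell with either agent. Control had 61.7 and 70.8 CPM, DSF 49.8 and 48.7, LPS 46.8 and 47.2, and DSF+LPS 37.4 and 33.2. The control libraries were the highest, the DSF+LPS libraries the lowest, and neither overlapped another group. LPS changed Nek7 by -0.50 without DSF (SE 0.09, adjusted p = 0.000875) and by -0.48 with it (SE 0.10, adjusted p = 0.00655), and the difference between these responses was 0.02 (SE 0.13, adjusted p = 0.967). The fall with LPS under DSF lost its call without DSF replicate 1 (-0.45, adjusted p = 0.0752). DSF changed it by -0.43 alone and by -0.41 in LPS-treated cells (adjusted p = 0.00121 and 0.00177), and with both agents Nek7 was at 0.534 of control. LPS thus raised Nlrp3 mRNA and lowered that of its partner. Nek7 overlaps the antisense gene Gm28501, with the same limit as for Aim2. On its own strand it overlaps Gm37080 and Gm37101, whose reads could not be told from its own by strand.

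Pycard, which encodes the adaptor ASC, was spread widely within control, at 22.3 and 17.0 CPM. DSF libraries had 13.0 and 12.03 CPM, LPS libraries 14.3 and 13.1, and DSF+LPS libraries 16.6 and 12.6. All treated libraries lay below both control libraries. Pycard fell with LPS (log2 fold change -0.51, SE 0.16, adjusted p = 0.0247) and with DSF (-0.65, SE 0.16, adjusted p = 0.00322), and was also lower with both agents than in control (-0.42, SE 0.16, adjusted p = 0.0314). DSF+LPS and LPS overlapped, with a log2 fold change of 0.09 (SE 0.16, adjusted p = 0.636). The LPS response with DSF exceeded that without it by 0.74 (SE 0.23, adjusted p = 0.0353). Control replicate 1 bore on all of these calls: without it the values were -0.31 for LPS (adjusted p = 0.301), -0.45 for DSF (adjusted p = 0.0627), -0.23 for both agents (adjusted p = 0.312) and 0.53 for the difference of responses (adjusted p = 0.199). The LPS call was also lost without either LPS library (adjusted p = 0.0672 and 0.163), and the call for both agents without DSF+LPS replicate 2 (-0.24, adjusted p = 0.217), with DESeq2 and with only the 2 groups (adjusted p = 0.100 and 0.0766). The difference of responses lost its call without either DSF library, either LPS library or DSF+LPS replicate 1 (adjusted p = 0.0560 to 0.135). Gm45205 overlaps Pycard on the opposite strand.

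Casp1, which encodes the caspase of canonical inflammasomes, had 29.2 and 31.0 CPM in control and 44.8 and 44.4 with LPS. The DSF libraries had 22.3 and 21.5 CPM and the DSF+LPS libraries 19.6 and 17.8. None of the 4 groups overlapped, and DSF+LPS was the lowest of them. LPS raised Casp1 by 0.57 on the log2 scale (SE 0.10, adjusted p = 0.000376), and DSF alone changed it by -0.46 (SE 0.10, adjusted p = 0.00124). In LPS-treated cells DSF brought it to 0.420 of the level with LPS (log2 fold change -1.25, SE 0.10, adjusted p = 6.49e-08). Under DSF the LPS effect was -0.22 (SE 0.10, adjusted p = 0.186), so that a rise without the drug stood against a negative value with it, and the difference between the responses passed the test (-0.79, SE 0.14, adjusted p = 0.00109). The value under DSF was called as a fall with library size alone (-0.33, adjusted p = 0.0479). With both agents Casp1 was below control (-0.68, SE 0.10, adjusted p = 3.78e-05). Apart from the value under DSF, the Casp1 calls held in every alternative.

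Casp4, the mouse gene for caspase-11, showed the second largest rise with LPS among the 10 genes. It had 5.85 and 4.14 CPM in control and 10.4 in each DSF library. The LPS libraries had 39.5 and 38.6 CPM and the DSF+LPS libraries 23.1 and 25.4. The groups lay apart in the same order as for Nlrp3. LPS raised Casp4 7.88-fold (log2 fold change 2.98, SE 0.15, adjusted p = 6.79e-10), and DSF alone raised it 2.09-fold (1.07, SE 0.16, adjusted p = 4.6e-05). DSF before LPS brought it to 0.620 of the LPS level (-0.69, SE 0.13, adjusted p = 0.000239), a smaller reduction than that of Nlrp3 or Casp1 in size, though these genes were not tested against each other. The LPS response under DSF was 1.22 (SE 0.14) and smaller than without it by 1.76 (log2 difference -1.76, SE 0.20, adjusted p = 2.11e-05). These calls held in every alternative.

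The promoter regions of these genes were searched for short sequence patterns, because Nlrp3 and Casp4 rose together with LPS. Windows from 250 bases before to 50 after a RefSeq start site (build GRCm38.p6) were found for 9 of the 10 genes, 11 windows in all. The pattern GGGA, any 4 bases, CC, an approximation of the site bound by NF-κB, was searched on both strands, as were the others, and was found upstream of Nlrp3, Casp4 and Nek7. It was present in 20.7% of 32851 windows of the same length. The 250 bases upstream of these 3 genes are shown 5′ to 3′ on the strand of the gene, with the match in capitals.
Nlrp3, chr11:59541319-59541568, plus strand: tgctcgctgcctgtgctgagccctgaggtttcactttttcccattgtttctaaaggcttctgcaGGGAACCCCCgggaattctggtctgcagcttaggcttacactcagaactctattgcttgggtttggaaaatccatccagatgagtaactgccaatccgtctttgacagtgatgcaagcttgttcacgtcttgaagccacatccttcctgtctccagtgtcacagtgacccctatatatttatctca
Casp4, chr9:5308599-5308848, plus strand: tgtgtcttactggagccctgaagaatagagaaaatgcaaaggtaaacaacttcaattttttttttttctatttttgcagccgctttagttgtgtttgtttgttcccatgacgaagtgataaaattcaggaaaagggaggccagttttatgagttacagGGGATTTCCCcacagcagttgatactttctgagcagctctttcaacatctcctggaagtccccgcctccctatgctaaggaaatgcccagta
Nek7, chr1:138619758-138620007, minus strand: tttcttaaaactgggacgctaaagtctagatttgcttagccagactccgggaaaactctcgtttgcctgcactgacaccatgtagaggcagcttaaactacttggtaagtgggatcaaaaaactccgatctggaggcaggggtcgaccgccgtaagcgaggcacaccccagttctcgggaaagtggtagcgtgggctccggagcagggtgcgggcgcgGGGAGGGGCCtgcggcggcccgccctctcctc

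The matches began 186 bases before the start of Nlrp3, 92 before that of Casp4 and 32 before that of Nek7, and overlapped no other pattern searched. Nlrp3 and Casp4 rose with LPS and Nek7 fell, and whether a match went with a direction of change was not tested. Casp4 has another listed start 11 bases downstream, whose window holds the same match. The other listed start of Nlrp3 had no such match but held TGACNNNGC, the core of the antioxidant response element, from base 10 after the start. That pattern was present in 12.4% of windows. Neither an interferon response element (GAAA, any 2 bases, GAAA, in 3.44% of windows), TGANTCA (AP-1, 7.81%) nor a heat shock element (GAA, TTC and GAA, each pair parted by any 2 bases, 0.603%) was found in any window of these genes, and the windows of Pycard, Casp1, Ninj1, Aim2, Mefv and Nlrc4 held none of the 5 patterns. A match of letters is a description and shows no binding.

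Gsdmd, which encodes the pore-forming gasdermin D, was raised slightly by LPS and lowered by DSF. It had 49.3 and 49.8 CPM in control and 59.4 and 62.9 with LPS. With DSF it had 36.0 and 37.5 CPM, and with both agents 39.97 and 39.1. The 4 groups did not overlap. LPS raised it by 0.30 on the log2 scale (SE 0.08, adjusted p = 0.0121). That call was lost with library size alone (0.15, adjusted p = 0.214), without control replicate 1 or 2 (0.29 and 0.31, adjusted p = 0.0938 and 0.0850) and without LPS replicate 2 (0.26, adjusted p = 0.143). DSF lowered Gsdmd alone (-0.43, SE 0.09, adjusted p = 0.000561) and in LPS-treated cells, to 0.646 of the LPS level (-0.63, SE 0.08, adjusted p = 1.30e-05), and with both agents it was below control (-0.33, SE 0.09, adjusted p = 0.00366). These 3 calls were kept in every alternative. Under DSF the LPS effect was 0.10 (SE 0.09, adjusted p = 0.489). The difference between the LPS responses was -0.20 (SE 0.12) and did not pass the test (adjusted p = 0.285).

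Ninj1, which encodes the membrane rupture protein ninjurin-1, was raised by either agent. Control had 122 and 117 CPM and DSF 191 and 157. The LPS libraries had 193 and 177 CPM and the DSF+LPS libraries 199 and 239.5. All treated libraries were above control, the DSF and LPS groups overlapped each other, and DSF+LPS was the highest group. LPS raised Ninj1 1.55-fold (log2 fold change 0.63, SE 0.10, adjusted p = 0.000203), DSF 1.46-fold (0.55, SE 0.10, adjusted p = 0.00033), and both agents 1.84-fold (0.88, SE 0.10, adjusted p = 2.79e-06). The step from LPS to DSF+LPS was 0.25 (SE 0.10, adjusted p = 0.0425) and that from DSF to DSF+LPS 0.33 (SE 0.10, adjusted p = 0.0430). These last calls were lost in 6 and 8 of 14 alternatives, where the adjusted p reached 0.260 and 0.225. Library size alone gave 0.20 and 0.23 (adjusted p = 0.101 and 0.145). Without DSF+LPS replicate 2 the steps were 0.13 and 0.22 (adjusted p = 0.247 and 0.122), without LPS replicate 2 the first was 0.18, and without DSF replicate 2 the second was 0.21. DSF alone thus lowered Gsdmd and raised Ninj1, whose products act in sequence in lytic death.

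**Figure D2:**
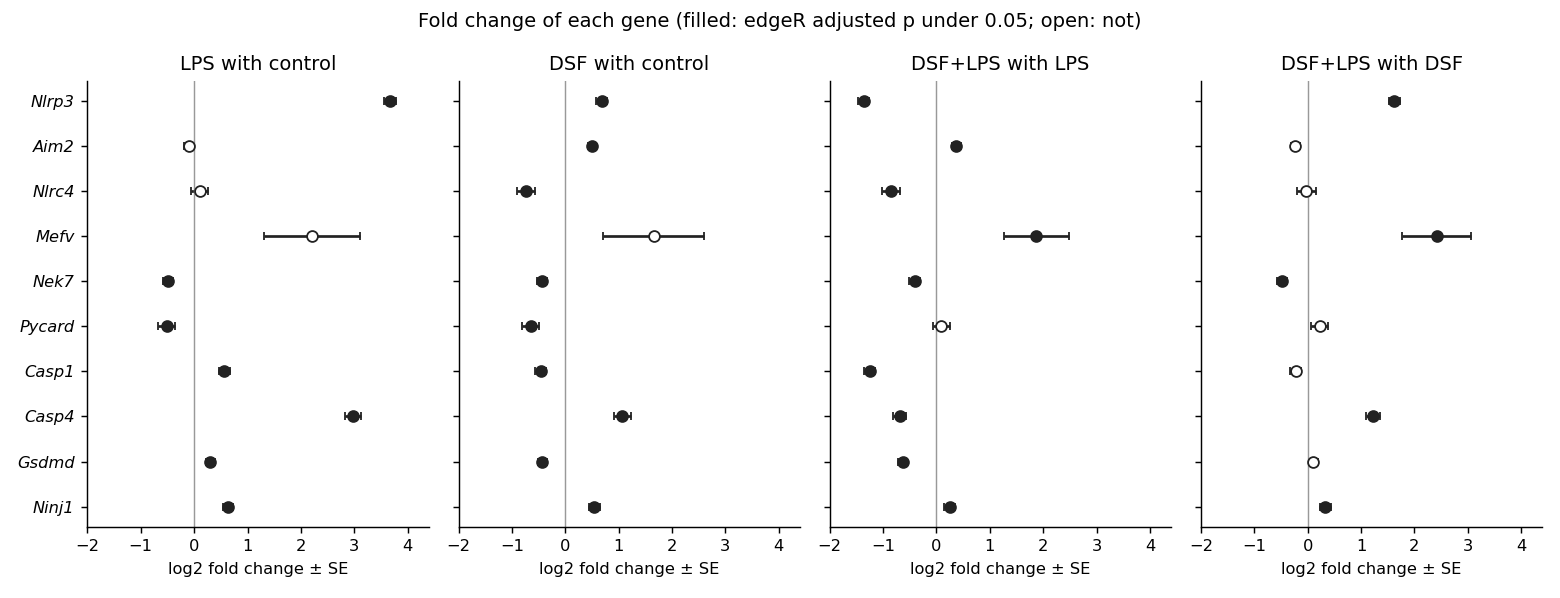
Log2 fold change with its SE for the 10 genes in 4 comparisons, with filled points for adjusted p under 0.05. With LPS alone Nlrp3 (3.67) and Casp4 (2.98) stand far to the right, and in DSF+LPS against LPS 6 of the 10 genes are called to the left of 0.

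The difference between the LPS response with the drug and that without it passed the test for 4 of the 10 genes, where 19.7% of all genes were called, 7.58% upward and 12.2% downward. It was negative for Nlrp3, Casp4 and Casp1 and positive for Pycard. For Ninj1 it was -0.30 (SE 0.14, adjusted p = 0.168), and this passed the test when DSF replicate 2 (-0.41, adjusted p = 0.0436) or DSF+LPS replicate 2 (-0.39, adjusted p = 0.0242) was left out. For Aim2, Nlrc4 and Mefv it was -0.13 (SE 0.11), -0.13 (SE 0.24) and 0.21 (SE 1.58), so that for Mefv the data allow a wide range of differences. The count of all genes called was 2072 without control replicate 1 and 2003 without LPS replicate 2, in place of 3217.

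**Figure D3:**
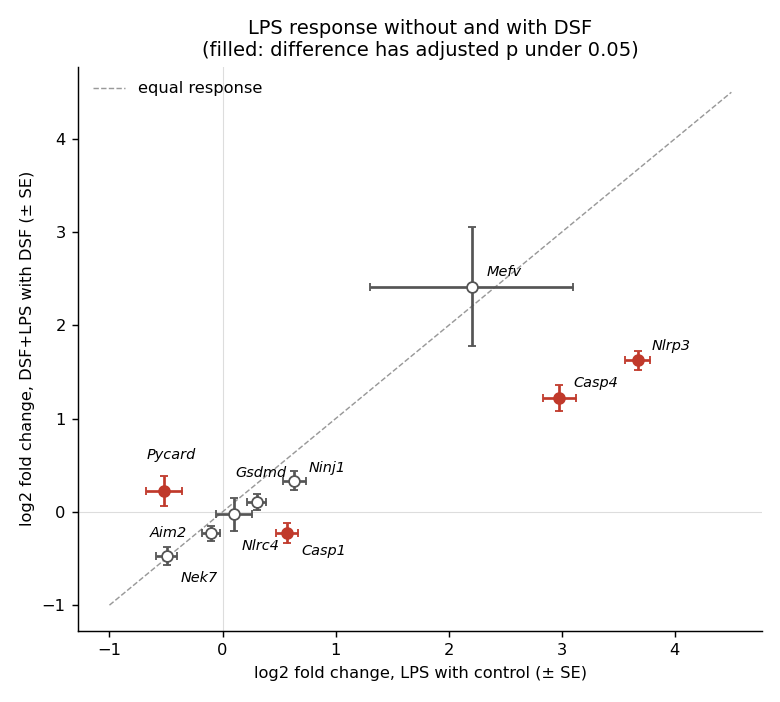
Log2 fold change with LPS without DSF (x axis) and with DSF (y axis) for each of the 10 genes, with SE bars, a dashed line of equal response and filled red points where the difference had an adjusted p under 0.05. Nlrp3, Casp4 and Casp1 lie below the line and Pycard above it.

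Levels of different genes were compared per kilobase of exon, from the GENCODE M21 basic gene models, so other models would give other values. All exons of a gene were joined. For Pycard they came to 3800 bases, and its value would be higher if the transcript in use were shorter. In control Ninj1 was the most abundant of the 10 mRNAs at 87.6 ± 2.44 CPM per kilobase (SD, n = 2), followed by Gsdmd at 27.6 ± 0.189, Aim2 at 23.8 ± 1.06 and Casp1 at 20.1 ± 0.878. Nek7 and Nlrp3 came next at 12.1 ± 1.17 and 11.96 ± 0.233 and overlapped each other. Below them were Pycard at 5.17 ± 1.00, Casp4 at 3.48 ± 0.840, Nlrc4 at 2.83 ± 0.0850 and Mefv at 0.0306 ± 0.0243 CPM per kilobase, where Casp4 and Nlrc4 overlapped. With LPS Nlrp3 took the first place at 152 ± 0.611 CPM per kilobase, above Ninj1 at 136 ± 8.07, and Casp4 moved up to 27.2 ± 0.441, next to Casp1 at 29.8 ± 0.195. With DSF+LPS Ninj1 led again at 161 ± 20.8, Nlrp3 was second at 59.1 ± 10.9, and Casp4 at 16.9 ± 1.17 stood above Casp1 at 12.5 ± 0.843. No neighbours in the order overlapped in the DSF, LPS or DSF+LPS libraries.

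**Figure D4:**
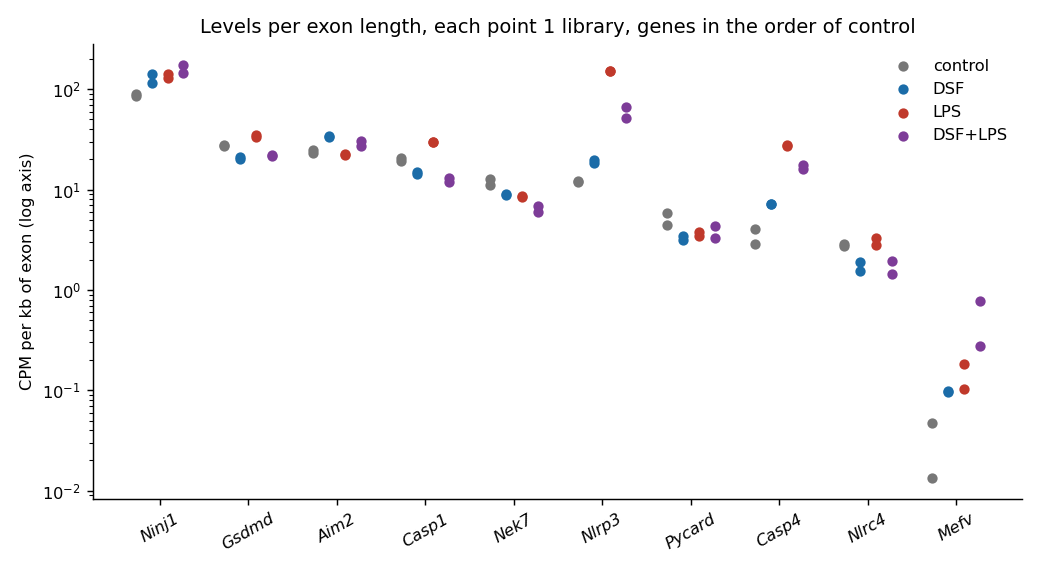
Level per kilobase of exon in CPM (log axis) of each gene in each library, colours marking the 4 groups and genes set in their order in control. Nlrp3 passes from a mean of 11.96 in control to 152 with LPS, while Mefv stays under 1 in every library.

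The other genes of the pathway were taken from lists of its parts. Among 11 tested sensors outside the 10 genes, LPS raised 4 and lowered 3, where 29.0% of all genes were called. The risers were Nlrc5, a regulator of MHC class I genes, from 34.0 to 96.2 CPM (log2 fold change 1.499), and the NAIP genes Naip2 (0.65), Naip5 (0.56) and Naip6 (0.41), whose products are the ligand receptors for NLRC4. Nlrp10 (-1.29), Nlrc3 (-0.69), an inhibitory family member, and Nlrp1b (-0.79) fell. Naip5, Naip6 and Nlrp1b lost their calls in 5, 6 and 5 of 14 alternatives. DSF before LPS raised 3 and lowered 6 of these 11, where 65.3% of all genes were called. Of the 3 raised, Nlrp6 and Nlrp12 passed the filter on low counts only through the groups with DSF, where they were high, and support nothing. The other was Nlrc3, which went from 31.1 ± 1.48 CPM with LPS to 95.6 ± 8.96 with DSF+LPS (log2 fold change 1.62, SE 0.10, adjusted p = 2.0e-09). Because NAIP genes are close copies of each other, the split of reads between them is uncertain.

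Of 14 further caspase, gasdermin and ninjurin genes only 5 were tested, and Casp12 had no count in any library. With a median of -0.28, LPS raised none and lowered 2 of the 5 (29.0% of all genes were called), among them the gasdermin gene Gsdme (-0.71). DSF in LPS-treated cells raised 1 and lowered 2, a share below the 65.3% of all genes, among them Casp8 (-1.14), an initiator of extrinsic apoptosis that can also cut gasdermin D. Casp8 had 66.1 ± 2.41 CPM with LPS and 30.0 ± 1.53 with both agents.

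All 5 genes on the list of released cargo were called with LPS (29.0% of all genes). Il1a, Il1b and Il18 were raised, and Hmgb1 and the galectin gene Lgals3 were lowered. The median log2 fold change of the list was 1.47, where that of all genes was 0.02. Il18 went from 5.82 ± 1.20 to 16.2 ± 0.579 CPM with LPS and stood at 3.43 ± 0.997 with both (log2 fold change of DSF+LPS to LPS -2.23, SE 0.25, adjusted p = 1.8e-06). Il1a had 118 ± 2.79 CPM with LPS and 5.10 ± 0.497 with both (-4.52, SE 0.23, adjusted p = 4.1e-10). Il1b changed by -5.598 on the log2 scale and Hmgb1 by -1.06, and Lgals3 rose by 1.01. Hmgb1 lost its LPS call in 5 of 14 alternatives (adjusted p up to 0.172). Of 8 genes upstream of NLRP3 none rose and 5 fell with LPS, where 13.8% of all genes fell, with a median of -0.59. These were the ATP-gated channel gene P2rx7 (-1.57), the pannexin gene Panx1 (-1.39), the potassium channel genes Kcnk13 (-1.26) and Kcnk6 (-0.42) and the cation channel gene Trpm2 (-0.76). DSF before LPS changed 6 of the 8, where 65.3% of all genes were called. It raised P2rx7 (0.86), Panx1 (3.12) and the volume-regulated channel gene Lrrc8a (0.80) and lowered Kcnk6 (-1.80), the thioredoxin inhibitor gene Txnip (-1.33) and the deubiquitinase gene Brcc3 (-0.68). Panx1 and Kcnk6 each lost the LPS call in 2 alternatives and Trpm2 in 1.

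In the noncanonical route, guanylate-binding proteins open bacterial membranes to caspase-11, and interferon factors control their genes and that of caspase-11. Of 10 such genes 8 rose with LPS and 1, Irf2, fell, where 15.2% of all genes rose and 13.8% fell, at a median log2 fold change of 2.19. Gbp5 went from 0.355 ± 0.00948 to 55.4 ± 1.87 CPM, Gbp2 from 1.31 ± 0.311 to 65.5 ± 1.20 and Gbp7 from 8.69 ± 1.39 to 72.9 ± 2.36. With DSF before LPS all 10 fell against LPS, where 31.6% of all genes fell, at a median of -3.25 where that of all genes was 0.04, among them Gbp5 (-6.51), Gbp7 (-4.93) and the GTPase gene Irgb10 (-4.92). Irgb10 had only 5 and 1 counts with both agents, and its value was -6.36 without DSF+LPS replicate 1 and -4.23 without DSF+LPS replicate 2. Gbp5 with both agents stood at 0.601 ± 0.0780 CPM. The Gbp genes are close copies, so the split of reads between them is uncertain. Casp4 with both agents was 4.89-fold above control (adjusted p = 7.26e-09). Irf2, a regulator of the Gsdmd gene, had 35.7 ± 0.794 CPM in control, 9.06 ± 0.319 with DSF, 26.2 ± 0.596 with LPS and 6.78 ± 2.11 with both. Its changes with DSF were -1.97 alone and -1.94 in LPS-treated cells (adjusted p = 5.7e-08 and 7.9e-08), and its LPS fall lost the call in 5 of 14 alternatives (adjusted p up to 0.145).

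Of 13 tested negative regulators and pyrin-controlling genes, LPS raised 4 and lowered 2 (median 0.10), where 29.0% of all genes were called. Il1rn, the interleukin-1 receptor antagonist, rose by 3.81 (SE 0.10) and the phosphatase gene Ptpn22 fell by 1.23 on the log2 scale. The pyrin-binding adaptor gene Pstpip1 (0.36), the kinase gene Pkn2 (0.35) and the 14-3-3 gene Ywhaz (0.32) rose, each losing the call in 3 alternatives. DSF before LPS raised 3 and lowered 9, where 65.3% of all genes were called. Those raised were Ptpn22 (0.63), Serpinb1b (1.38) and Serpinb1a (2.33, lost in 9 of 13 alternatives). Serpinb1a had only 1 and 2 counts with LPS and 12 and 3 with both agents. It passed the filter on low counts only with the libraries given DSF, so its call supports nothing. Among the genes lowered was Il1rn, from 542 ± 10.0 to 153 ± 20.0 CPM (-1.83). Of 10 genes that modify gasdermin D or repair the membrane (median 0.15), LPS raised Acsl4, Chmp4b, Rraga and Anxa2 (0.75, 0.38, 0.37 and 0.19) and lowered Vps4a and Zdhhc9 (-0.37 and -0.32), where 29.0% of all genes were called. Anxa2 lost its call in 8 alternatives, Zdhhc9 in 3 and Rraga and Vps4a in 2. DSF before LPS changed 6 of these 10, a share below the 65.3% of all genes. It lowered Rraga (-1.503), Acsl4 (-1.35), Zdhhc9 (-0.79) and Zdhhc5 (-0.77), the last of which encodes an enzyme that attaches palmitate to gasdermin D. It raised the membrane repair gene Chmp4b (0.39) and Lamtor1 (0.29, lost in 1 alternative).

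**Figure D5:**
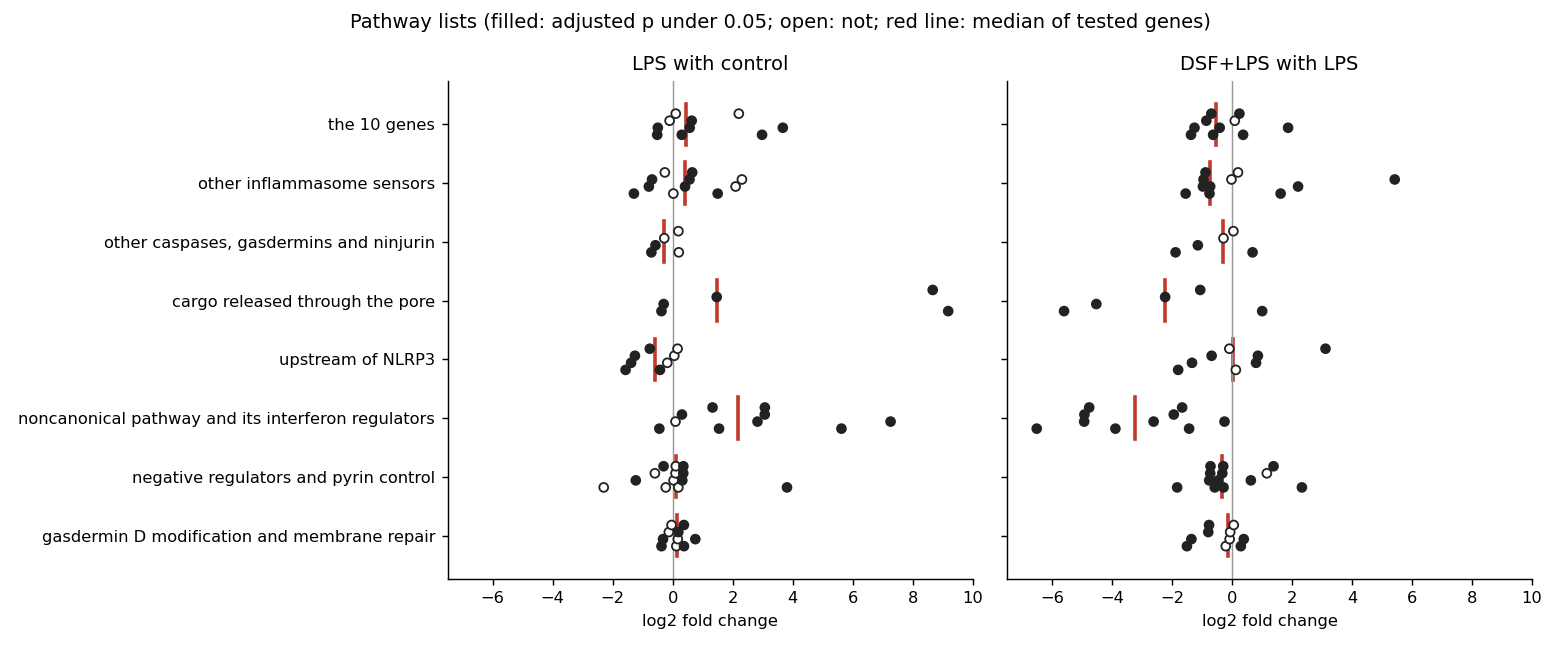
Log2 fold change of every tested gene of the pathway lists, in LPS against control and in DSF+LPS against LPS, with filled points for adjusted p under 0.05 and a red line at the median of each list. The list of the noncanonical route has its median at 2.19 with LPS and at -3.25 in DSF+LPS against LPS.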

How the data were processed

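RNA sequencing of 8 libraries was analysed from the deposited count table, which holds whole-number counts per gene that the authors left unscaled, as the values show. The submitters' processing notes name the build GRCm39 and DESeq2 and do not say what each was used for. How reads were aligned and counted, with which annotation and strand setting, is not given in the sources used here. GENCODE M21 (build GRCm38) gave symbols for 52081 of 55414 identifiers.

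One edgeR 4.0.16 fit (R 4.3.3, limma 3.58.1) over all 8 libraries had a mean per group, TMM scaling and filterByExpr defaults (minimum count 10, minimum total 15). The SE was |log2 fold change| over the root of F. Intervals cover counting error only, since they pool the libraries of a group and leave out the spread between them. PCR copies are not independent molecules, so even the counting error may be larger. Alternatives were RLE scaling, library size alone, DESeq2 1.42.0, no filter, a replicate block, only the 2 groups compared, and leaving out each library. The scripts were tested on simulated data.

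The genes and lists were chosen with earlier results of these data known. All 10 genes are named, and from each list up to 3 called genes of largest change in LPS with control and in DSF+LPS with LPS, plus all called in a direction with 5 or fewer. For Nlrp3, Gsdmd and Ninj1 the 3 genes of highest correlation are named. Some genes that the rule takes are not reported here.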

Additional observations from a re-analysis of the deposited data

Results flagged for a closer look

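The response to LPS differed with and without DSF by a test of the difference itself for 4 of the 10 genes. The log2 difference, response with DSF minus response without it, was -2.05 for Nlrp3, -1.76 for Casp4, -0.79 for Casp1 and 0.74 for Pycard. Nlrp3 and Casp4 rose with LPS in both conditions and less so with the drug. Casp1 rose with LPS without the drug (0.57) and had a value of -0.22 with it, and Pycard fell without the drug (-0.51) and had 0.22 with it, neither of the values under DSF passing the test.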

How the results depend on the processing

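Over 13 or 14 alternatives a comparison, 826 values of the 10 genes in 6 comparisons were recomputed. Of these, 763 kept direction and side of the threshold, 43 lost the call, 7 gained it and 13 turned sign. All sign changes were in values that had not passed the test. What caused the changed calls and signs was not tested. With only the 2 groups compared, all genes called in LPS with control were 6043, in place of 4731. The number of the 10 genes called in DSF+LPS against DSF was 5, and 3 with only the 2 groups compared. Leaving out 1 library gave 3 to 6 there, 3 each without DSF replicate 1, DSF replicate 2 or DSF+LPS replicate 2. It gave 5 to 7 for LPS with control, 8 or 9 for DSF with control, 7 to 9 for DSF+LPS with LPS, 9 or 10 for DSF+LPS with control and 3 to 5 for the difference of responses.

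With library size alone Nlrc4 in LPS with control was -0.055 and Gsdmd in DSF+LPS with DSF -0.0016. Leaving out 1 library gave Nlrc4 -0.010 to 0.20 in LPS with control and -0.23 to 0.18 in DSF+LPS with DSF, and Pycard -0.13 to 0.29 in DSF+LPS with LPS. In the difference of responses it gave Mefv -0.82 to 0.88, Nek7 -0.086 to 0.15 and Nlrc4 -0.31 to 0.093.

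Scaling by library size alone moved the median log2 value over all genes by -0.14 in LPS with control, where the upward share of calls went from 52.5% to 30.0% and the 10 genes were 4 up and 3 down. In DSF with control the shift was -0.10. In DSF+LPS with DSF it was -0.11, the upward share went from 45.8% to 17.5% (55.9% with DESeq2), and the genes were 3 up and 3 down. In DSF+LPS with control it was -0.21, the share went from 52.7% to 41.0%, and the genes were 4 up and 5 down. All genes called in LPS with control were 4731, and 3146 without control replicate 2. In DSF+LPS with DSF they were 1966, 399 without DSF replicate 1 and 524 with only the 2 groups.

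Same-numbered libraries deviated from their group means with correlations between groups of -0.12 to 0.05 across genes, so the numbers show no pairing. With the replicate block the genes called were 7 of 10 for LPS and 9 for DSF, each against control, 9 for both agents against LPS alone, 5 against DSF alone, 10 against control and 4 for the difference of responses, equal in each to the fit without it. Mefv, Nlrp6, Nlrp12 and Serpinb1a had few counts, which limits what their values show.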

Other observations

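Nlrp6, which senses microbial products in gut epithelium, had 0 and 0 counts in control, 0 and 1 with LPS, 8 and 24 with DSF and 37 and 13 with DSF+LPS. The ratio of DSF+LPS to LPS was 54.1, with a 95% exact binomial interval for counting error of 9.28 to 2180. Nlrp12, an inhibitory family member, had 0 and 1, 1 and 4, 11 and 10, and 10 and 12 counts in the same order of groups, a ratio of 4.76 (1.76 to 16.1), and its call in DSF+LPS against LPS was lost in 6 of 14 alternatives. The DSF libraries also had more genes with a count, and the part of this in these values was not tested. Both Nlrp6 and Nlrp12 passed the filter on low counts only through the groups with DSF, where they were high. Their ratios and calls are thus descriptions and support nothing, and the intervals leave out the spread between libraries.

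Among 10088 genes with at least 5 CPM in their highest group, those whose log2 CPM over the 8 libraries was most like Nlrp3 were Tnfrsf1b (Pearson's r 0.998), Tmem132a (0.995) and Tnf (0.994). Tnfrsf1b had mean levels of 78.9, 119, 695 and 312 CPM in control, DSF, LPS and DSF+LPS. For Gsdmd they included Mapre2 (0.993) and Tagap (0.991), with Mapre2 at 144, 81.2, 225 and 93.6 CPM. For Ninj1 they were Gas5 (0.990), Zfp263 (0.984) and Abcc1 (0.982), with Abcc1 at 294, 430.3, 431 and 490.4 CPM. The 8 libraries form 4 groups, so these correlations rest on few independent points and are descriptions.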
